A study of Homo sapiens with 13 samples.

Results

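The aryl hydrocarbon receptor gene AHR was examined together with 4 genes that it is known to switch on, namely AHRR, TIPARP, CYP1A1 and CYP1B1. The 5 genes were taken by symbol from a table of read counts for 43836 genes, and each had 1 row. All 5 passed the filter on low counts, which left 17092 genes for testing. The counts came from mRNA sequencing of hFOB 1.19 cells, a human fetal osteoblast line that was immortalized and grows as a single established line.

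Positive control cells were grown with 10% fetal bovine serum. Negative control cells were grown without serum. The other groups were also grown without serum and each received a compound at 1 µg/mL, which was resveratrol in the RES group and the anthocyanin peonidin-3-O-glucoside in the POG group. The compound of the last group is named only as DEG. The treatment label shared by all samples names a delphinidin glucoside among the compounds but does not tie it to that name. Per the study's methods both kinds of control received the DMSO vehicle. There were 2 positive control, 2 negative control, 3 RES, 3 POG and 2 DEG libraries. A further DEG sample was not analysed here. Libraries are numbered within a group in accession order. The labels do not say whether the libraries of a group came from separate cultures. The p-values rest on the spread between libraries within groups, estimated over all groups together, and this spread may be technical.

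The receptor is a transcription factor of the bHLH-PAS family. Without a ligand it sits in the cytosol with HSP90 and the cochaperone p23, and a ligand such as a polycyclic aromatic hydrocarbon, a dietary polyphenol or a tryptophan metabolite sends it to the nucleus, where it pairs with ARNT and binds response elements whose core reads GCGTG. AHRR, which competes for ARNT, and TIPARP, an ADP-ribosyltransferase that modifies the receptor, are targets that act back on it, while CYP1A1 and CYP1B1 encode monooxygenases that oxidize aromatic compounds and estrogens. In bone, receptor ligands from smoke and combustion are known to hamper osteoblast differentiation, and resveratrol is a known antagonist of the receptor.

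Library totals ran from 38464619 to 51416358 counted reads. The 8 osteoblast markers summed to between 4751 and 5524 CPM in every library, nearly all of it from COL1A1, COL1A2 and SPARC. RUNX2 stood at 44.3 to 51.6 CPM and ALPL at only 3.22 to 6.66 CPM. The late markers SPP1 and BGLAP stood at 0.425 to 2.34 CPM, and SP7 failed the filter with at most 0.181 CPM. The markers of other cell types summed to at most 3.25 CPM (endothelial), 1.52 CPM (leukocyte), 1.17 CPM (adipocyte), 0.688 CPM (epithelial) and 0.331 CPM (hepatocyte). CPM here are depth-scaled read counts, with the libraries brought to one scale by TMM (trimmed mean of M values). In bulk RNA a lower level can mean fewer cells with the transcript or less of it per cell, and these cannot be told apart. The 2 positive control libraries stood further apart than the libraries of any other group. The mean squared difference within the pair was 12.1 times sampling noise, as compared with 2.09 to 2.76 times in the other groups. Results with serum are therefore also given without each of these libraries where that ended a call.

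The genes lie on 5 chromosomes of hg38. AHR (ENSG00000106546.12) spans 16916359 to 17346152 on chromosome 7 and AHRR (ENSG00000063438.16) spans 321714 to 438291 on chromosome 5. TIPARP (ENSG00000163659.12) spans 156673235 to 156706770 on chromosome 3. CYP1B1 (ENSG00000138061.11) spans 38066973 to 38109902 on chromosome 2 and CYP1A1 (ENSG00000140465.13) spans 74719542 to 74725536 on chromosome 15. The annotation places CYP1B1-AS1 over CYP1B1 on the opposite strand, a long noncoding RNA over exons of AHR on the opposite strand, and a readthrough transcript of PDCD6 that shares exons with AHRR. None of these partners had a row of its own among the counted genes. The readthrough lies on the same strand as AHRR, and the strand setting of the counting was not stated. Reads of these partners therefore cannot be told apart from those of CYP1B1, AHR and AHRR. RMDN2, which also overlaps CYP1B1 on the opposite strand, held 66 to 131 reads per library. A protein-coding gene without a symbol shares exons with AHR on the same strand and held 0 reads in every library. How reads on exons shared by 2 genes were counted was not stated.

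The response element core was looked for in the 250 bases before the annotated starts in RefSeq (GRCh38.p14), where 4 of the 5 genes had a window. No window was used for CYP1B1. The core GCGTG was searched on both strands, and 32.2% of 35116 windows of the same length held it. Of the 7 windows of these genes (AHRR has 2 and TIPARP 3) 4 held it. The longer motif TNGCGTG, which contains the core, was in 4.5% of all windows and in 1 of these 7, the first AHRR window. The first 240 of the 250 bases are shown for the 3 targets whose first window held a core, because these genes are read out below as targets of the receptor. Capitals mark the core, or CACGC where it lies on the opposite strand.
AHRR, chr5:321464-321703, plus strand: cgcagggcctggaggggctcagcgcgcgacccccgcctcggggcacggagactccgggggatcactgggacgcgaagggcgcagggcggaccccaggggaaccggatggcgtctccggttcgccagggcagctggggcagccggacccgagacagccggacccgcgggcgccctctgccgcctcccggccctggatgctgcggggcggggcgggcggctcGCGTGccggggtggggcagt
CYP1A1, chr15:74725539-74725778, minus strand: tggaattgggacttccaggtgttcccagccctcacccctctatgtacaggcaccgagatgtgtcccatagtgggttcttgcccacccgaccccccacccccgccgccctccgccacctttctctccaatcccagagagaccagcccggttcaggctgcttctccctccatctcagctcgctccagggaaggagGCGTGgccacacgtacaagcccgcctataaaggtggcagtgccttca
TIPARP, chr3:156674340-156674579, plus strand: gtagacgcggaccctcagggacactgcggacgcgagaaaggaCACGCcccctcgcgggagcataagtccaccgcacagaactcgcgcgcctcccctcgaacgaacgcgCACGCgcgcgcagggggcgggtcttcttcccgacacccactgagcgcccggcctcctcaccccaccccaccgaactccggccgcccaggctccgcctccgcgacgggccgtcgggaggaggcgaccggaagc
The core in AHRR began 30 bases before the start and that in CYP1A1 began 57 bases before it. TIPARP held 2 on the opposite strand, with their first printed bases 208 and 142 before the start. The single AHR window held no core. A match is a stretch of letters and no measurement of binding.

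Per kilobase of transcript AHRR and TIPARP were the most abundant of the 5 transcripts, and CYP1A1 was by far the least abundant. With serum the mean level was 27.1 RPKM for TIPARP and 14.02 RPKM for AHRR, whereas in the 4 serum-free groups it was 13.2 to 15.2 RPKM for TIPARP and 13.6 to 15.8 RPKM for AHRR, with AHRR the higher in each group mean. Over the 12 libraries the mean level was 9.12 RPKM for CYP1B1, 6.41 RPKM for AHR and 0.355 RPKM for CYP1A1. Lengths were those of the canonical transcripts in GENCODE v44, and the annotation used for counting was not stated. ARNT, the nuclear partner, stood at 18.3 RPKM. The 4 abundant genes rested on 1434 to 5225 reads per library. CYP1A1 rested on 20 to 64 reads, so its values carry a much larger counting error.

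**Figure D1:**
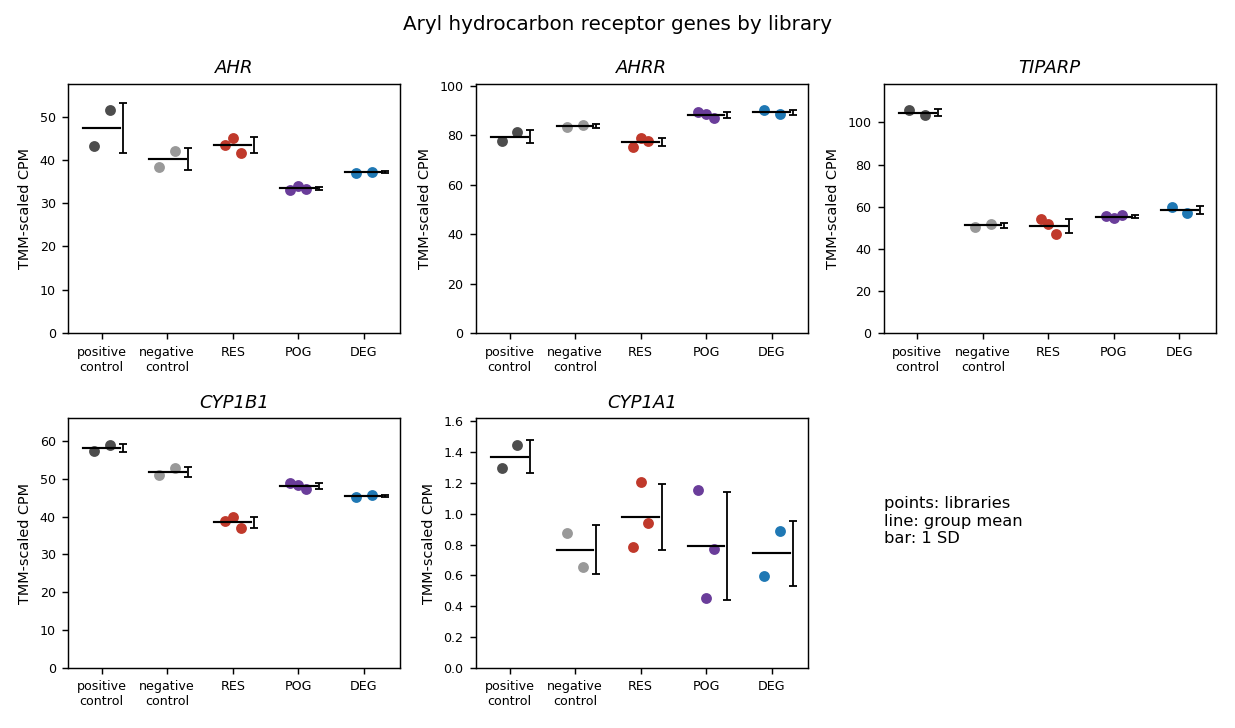
TMM-scaled CPM of the 5 genes (vertical axes from 0) in each library of the 5 groups (horizontal axes), with the group mean as a line and 1 SD as a bar. TIPARP stood at 104 and 106 CPM with serum and at 47.1 to 59.9 CPM in all other libraries, while CYP1B1 was lowest in the 3 RES libraries, at 36.9 to 39.8 CPM.

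The first comparison asked what serum changed. TIPARP rose 2.04-fold with serum, and AHR, CYP1B1 and CYP1A1 were called higher as well, whereas AHRR was not called. Calls were made by edgeR's exact test at a false discovery rate (FDR) under 0.05 over all 17092 genes. Thus 4 of the 5 genes were called, all 4 of them higher, where 42.4% of all tested genes were called, 21.4% higher and 20.9% lower. The libraries of the groups did not overlap for any of the 5, as held for 65.6% of all tested genes.

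TIPARP stood at 106 and 104 CPM in the positive controls and at 50.4 and 52.0 CPM in the negative controls. The groups were far apart (95% interval of the fold change 1.90 to 2.19; log2 fold change 1.03, SE 0.0501, edgeR FDR 3.05e-86). The call held in all 11 alternatives, with log2 fold changes from 0.99 to 1.06.

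CYP1B1 stood at 57.4 and 58.9 CPM with serum and at 50.98 and 52.7 CPM without it. The groups did not overlap, and the rise was small (log2 fold change 0.17, SE 0.0481, edgeR FDR 0.00313). CYP1A1 stood at 1.30 and 1.45 CPM with serum (64 and 61 reads) and at 0.878 and 0.654 CPM without it (34 and 26 reads). The CYP1A1 call was close to the threshold (log2 fold change 0.84, SE 0.351, edgeR FDR 0.0388), and the quasi-likelihood test (FDR 0.0570) and DESeq2 (adjusted p 0.0772) did not make it.

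AHR itself stood at 43.2 and 51.4 CPM with serum and at 38.4 and 42.1 CPM without it. The serum libraries lay further from each other than the lower one lay from the negative controls (log2 fold change 0.23, SE 0.0633, edgeR FDR 0.00135). AHRR stood at 77.5 and 81.3 CPM with serum and at 83.3 and 84.3 CPM without it (log2 fold change −0.08, SE 0.0415, edgeR FDR 0.152). With positive control 2 left out the FDR was 0.141 for AHR, 0.0947 for CYP1A1 and 0.0458 for AHRR. With negative control 1 left out the FDR was 0.0975 for AHR, 0.0717 for CYP1B1 and 0.0597 for CYP1A1, and with negative control 2 left out it was 0.272 for CYP1A1.

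RES against the negative control asked what the known antagonist changed in serum-free cells. CYP1B1 fell by 25.8%, and AHRR was called lower by a narrow margin. AHR, TIPARP and CYP1A1 were not called. The count of 2 of 5 called genes, both lower, stands beside 11.2% of all tested genes called, 4.94% higher and 6.21% lower. Over all genes 44.3% of the calls were higher, and with plain library totals in place of TMM 64.0% were. The same 2 genes were those without overlap between the groups, as held for 40.9% of all tested genes.

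CYP1B1 stood at 38.7, 39.8 and 36.9 CPM in RES and at 50.98 and 52.7 CPM in the negative controls. Every RES library lay below every negative control, and below every POG and DEG library as well. The fold change was 0.742 (95% interval 0.696 to 0.791; log2 fold change −0.43, SE 0.0452, edgeR FDR 3.66e-17). The call held in all 12 alternatives, with log2 fold changes from −0.46 to −0.40.

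AHRR stood at 75.3, 78.8 and 77.6 CPM in RES and at 83.3 and 84.3 CPM in the negative controls. The groups did not overlap, and the fall was small (log2 fold change −0.12, SE 0.0380, edgeR FDR 0.0403). AHRR missed the threshold when negative control 1 (FDR 0.174), negative control 2 (0.291), RES 1 (0.178) or RES 3 (0.0868) was left out. It also missed it with no filter on low counts (0.138) and with plain library totals (0.150).

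AHR stood at 43.5, 45.2 and 41.7 CPM in RES, overlapping the negative controls at 38.4 and 42.1 CPM (log2 fold change 0.11, 95% interval −0.01 to 0.23, edgeR FDR 0.264). TIPARP stood at 53.9, 51.6 and 47.1 CPM, on both sides of the negative controls at 50.4 and 52.0 CPM (log2 fold change −0.01, 95% interval −0.11 to 0.09, edgeR FDR 0.963), and its sign turned with plain library totals. CYP1A1 held 35, 54 and 42 reads in RES and 34 and 26 in the negative controls. That overlap left a wide interval for its log2 fold change, from −0.33 to 1.04 around 0.35 (edgeR FDR 0.598), so no change of CYP1A1 was called and the interval spans both directions.

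POG against the negative control asked the same of the anthocyanin. AHR was called lower, and the 4 targets were not called. That 1 of 5 genes stands beside 14.5% of all tested genes called, 5.93% higher and 8.57% lower. Of the calls over all genes 40.9% were higher, against 56.0% with plain library totals. The groups did not overlap for 4 of the 5 genes (all but CYP1A1), as held for 44.1% of all tested genes.

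AHR stood at 33.1, 33.9 and 33.3 CPM in POG and at 38.4 and 42.1 CPM in the negative controls. The POG libraries were the lowest of all 12 for this gene and lay close together (log2 fold change −0.27, SE 0.0594, edgeR FDR 2.86e-04). The fold change was 0.831 with a 95% interval of 0.764 to 0.904. The FDR was 0.106 when negative control 2 was left out.

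The targets of the receptor were not called in POG. Every POG library lay below the negative controls for CYP1B1 and above them for AHRR and TIPARP. CYP1B1 stood at 48.8, 48.3 and 47.2 CPM (log2 fold change −0.11, SE 0.0446, 95% interval −0.20 to −0.02, edgeR FDR 0.103). TIPARP stood at 55.4, 54.6 and 55.9 CPM (log2 fold change 0.11, SE 0.0476, 95% interval 0.01 to 0.21, edgeR FDR 0.120). With dispersions from the groups compared, CYP1B1 (edgeR FDR 0.0439) and TIPARP (0.0288) were called. TIPARP was also called with plain library totals (0.0426). AHRR stood at 89.3, 88.4 and 86.9 CPM (log2 fold change 0.07, SE 0.0378, edgeR FDR 0.232). CYP1A1 held 52, 20 and 36 reads, of which 20 was the lowest of all 12 libraries (log2 fold change 0.06, 95% interval −0.65 to 0.76, edgeR FDR 0.979).

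DEG against the negative control asked the same of the last compound. CYP1B1 was called lower and TIPARP higher, and AHR, AHRR and CYP1A1 were not called. The 2 of 5 genes stand beside 9.63% of all tested genes called, 3.52% higher and 6.11% lower. Among the calls over all genes 36.6% were higher, against 49.3% with plain library totals. The groups did not overlap for 4 of the 5 genes (all but CYP1A1), as held for 51.8% of all tested genes.

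CYP1B1 stood at 45.2 and 45.6 CPM in DEG and at 50.98 and 52.7 CPM in the negative controls (log2 fold change −0.19, SE 0.0497, edgeR FDR 0.00483). TIPARP stood at 59.9 and 57.2 CPM in DEG and at 50.4 and 52.0 CPM in the negative controls (log2 fold change 0.19, SE 0.0523, edgeR FDR 0.00729). For both genes the DEG libraries lay outside the range of the negative controls, CYP1B1 below and TIPARP above. For CYP1B1 the FDR was 0.0852, 0.0518 and 0.137 when DEG 1, DEG 2 or negative control 2 was left out. For TIPARP it was 0.198 and 0.149 when DEG 1 or negative control 1 was left out.

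AHR stood at 37.0 and 37.3 CPM in DEG, just under the lower negative control at 38.4 CPM (log2 fold change −0.11, 95% interval −0.25 to 0.02, edgeR FDR 0.344). AHRR stood at 90.1 and 88.4 CPM, above both negative controls (log2 fold change 0.09, 95% interval 0.01 to 0.18, edgeR FDR 0.213). The intervals are per gene and not adjusted over all genes, so they can leave out 0 where the FDR misses the threshold. CYP1A1 held 23 and 35 reads in DEG, overlapping the 34 and 26 of the negative controls (log2 fold change −0.04, 95% interval −0.83 to 0.75, edgeR FDR 1).

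The comparisons with the negative control share its 2 libraries, so the values above are set side by side only, and the compounds were compared with each other directly at the same dose. The compounds are a stilbene (RES) and an anthocyanin (POG), beside DEG. POG and RES differed in 4 of the 5 genes, and so did DEG and RES, where 27.9% and 21.2% of all tested genes were called. Of all tested genes 13.7% were higher and 14.1% lower in POG than in RES, and 10.3% were higher and 10.8% lower in DEG than in RES. The groups did not overlap for 4 of the 5 genes in each comparison, as compared with 42.1% and 48.4% of all tested genes. In both comparisons AHR was lower and AHRR, TIPARP and CYP1B1 were higher than in RES. The 2 comparisons share the RES libraries.

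**Figure D2:**
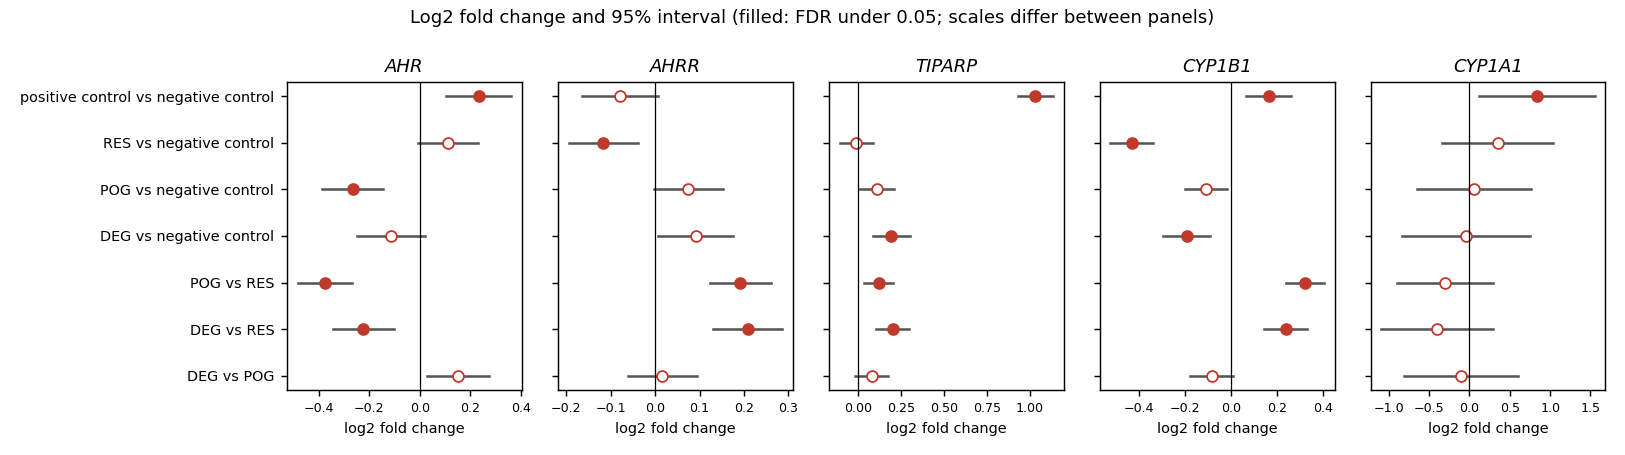
Log2 fold change (horizontal axes, which differ between panels) of the 5 genes in the 7 comparisons (rows), with the 95% interval as a line and filled points for an FDR under 0.05. CYP1B1 lies to the left of 0 in RES against the negative control (−0.43) and to the right in POG and DEG against RES (0.32 and 0.24).

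CYP1B1 was 1.25-fold higher in POG than in RES (95% interval 1.18 to 1.32, edgeR FDR 9.53e-13). It was 1.18-fold higher in DEG than in RES (95% interval 1.11 to 1.26, edgeR FDR 1.47e-05). The calls on CYP1B1 held in all 13 and all 12 alternatives.

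AHR was lower in POG than in RES by a fold change of 0.770 (95% interval 0.715 to 0.829, edgeR FDR 9.25e-11). It was lower in DEG than in RES by a fold change of 0.856 (95% interval 0.787 to 0.931, edgeR FDR 0.00224), which became 0.0531 when DEG 1 was left out. The direction of AHR was thus opposite to that of its 3 abundant targets in both comparisons with RES.

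The 2 genes that act back on the receptor were both higher than in RES. AHRR was 1.14-fold higher in POG (edgeR FDR 1.41e-06) and 1.16-fold higher in DEG (edgeR FDR 6.33e-06), and both calls held in all 13 and all 12 alternatives. TIPARP was 1.09-fold higher in POG (edgeR FDR 0.0236), which became 0.302, 0.0725 and 0.0928 when RES 3, POG 1 or POG 3 was left out. TIPARP was 1.15-fold higher in DEG (edgeR FDR 4.77e-04), which became 0.0646 when DEG 1 was left out. For CYP1A1 the direct log2 differences were −0.30 for POG (95% interval −0.89 to 0.30) and −0.40 for DEG (−1.09 to 0.30).

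DEG and POG were not told apart in these genes. The edgeR exact test called 0 of the 5, where 1.05% of all tested genes were called, 0.55% higher and 0.497% lower. The groups did not overlap for 3 of the 5 genes (AHR, CYP1B1 and TIPARP), as held for 31.9% of all tested genes. The quasi-likelihood test and DESeq2 also called 0, and 1 gene (AHR) had an unadjusted p under 0.05. The DEG to POG fold change was 1.11 for AHR (95% interval 1.02 to 1.21, edgeR FDR 0.264), 1.01 for AHRR (0.959 to 1.07), 1.06 for TIPARP (0.990 to 1.13), 0.944 for CYP1B1 (0.885 to 1.01) and 0.934 for CYP1A1 (0.572 to 1.53). AHR was called when dispersions came from these groups alone (edgeR FDR 0.0399).

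The order of the groups differed from gene to gene. For CYP1B1 it ran from the positive control over the negative control, POG and DEG to RES, and no neighbours overlapped, although the negative control and POG (edgeR FDR 0.103) and POG and DEG (0.546) were not called. For AHR it ran from the positive control over RES, the negative control and DEG to POG, with overlap between the positive control and RES and between RES and the negative control. The negative control and DEG (0.344) and DEG and POG (0.264) were apart for AHR without a call. For AHRR the order was DEG, POG, negative control, positive control and RES, with overlap between DEG and POG and between the positive control and RES. The negative control was apart from POG (edgeR FDR 0.232) and from the positive control (0.152) for AHRR without a call. For TIPARP the positive control led by a wide gap over DEG, POG, the negative control and RES, the last 2 of which overlapped. DEG and POG (0.581) and POG and the negative control (0.120) were not called for TIPARP. For CYP1A1 the serum-free groups overlapped throughout.

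Pairs of the 5 genes were compared over the 12 libraries as a description of pattern, using log2 CPM (prior count 2). AHR and AHRR ran opposite to each other (Pearson r −0.74). AHR and CYP1B1 did not follow each other (0.10). The value for CYP1B1 and TIPARP was 0.71, with both genes highest in the positive controls. With DEG against the negative control, CYP1B1 and TIPARP were called in opposite directions (log2 fold change −0.19 and 0.19). With RES they changed by −0.43 and −0.01. The other pairs lay between −0.46 and 0.55. The libraries share groups and scaling, so the correlations carry no test. By the same measure the 3 genes nearest in pattern to AHR were SRGAP1 (0.97), RBMS3 (0.97) and NDST1 (0.96), and those nearest to TIPARP were IPO5 (0.99), ECI2 (0.99) and IL1A (0.99). The genes nearest to CYP1B1 were ASPH (0.95), GPSM2 (0.94) and ANP32E (0.94). Those nearest to AHRR were FHIP2B (0.96), OSBP (0.96) and FAM168B (0.95), while those nearest to CYP1A1 reached only 0.89 (ZNF385D, TCEANC and NUDCD3).

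A list of 36 further genes of the pathway was then read by role. Of these, 28 passed the filter. The 8 others, CYP1A2, UGT1A1, UGT1A6, GSTA1, GSTA2, IDO2, TDO2 and KMO, held 0 to 8 reads per library, so 5 of the 10 drug metabolism genes had counts at or near 0. ALDH3A1, a further drug metabolism gene, passed the filter on only 4 to 18 reads per library. UGT1A1 lies within the span of UGT1A6 on the same strand. How reads matching several genes were counted was not stated, so such reads may be missing from these counts. Of the 28 tested genes, those called numbered 21 for serum (10 higher and 11 lower), 11 for RES (4 higher and 7 lower), 7 for POG (1 higher and 6 lower) and 3 for DEG (all 3 lower), beside 42.4%, 11.2%, 14.5% and 9.63% of all tested genes. The median log2 fold change over the 28 was 0.08 for serum, −0.03 for RES, −0.02 for POG and −0.03 for DEG, beside −0.0059, 0.0011, 0.0023 and 0.00083 over all tested genes. Directly compared, 13 of the 28 differed between POG and RES (8 higher and 5 lower in POG), 14 between DEG and RES (8 higher and 6 lower in DEG) and 1 between DEG and POG, beside 27.9%, 21.2% and 1.05% of all tested genes.

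**Figure D3:**
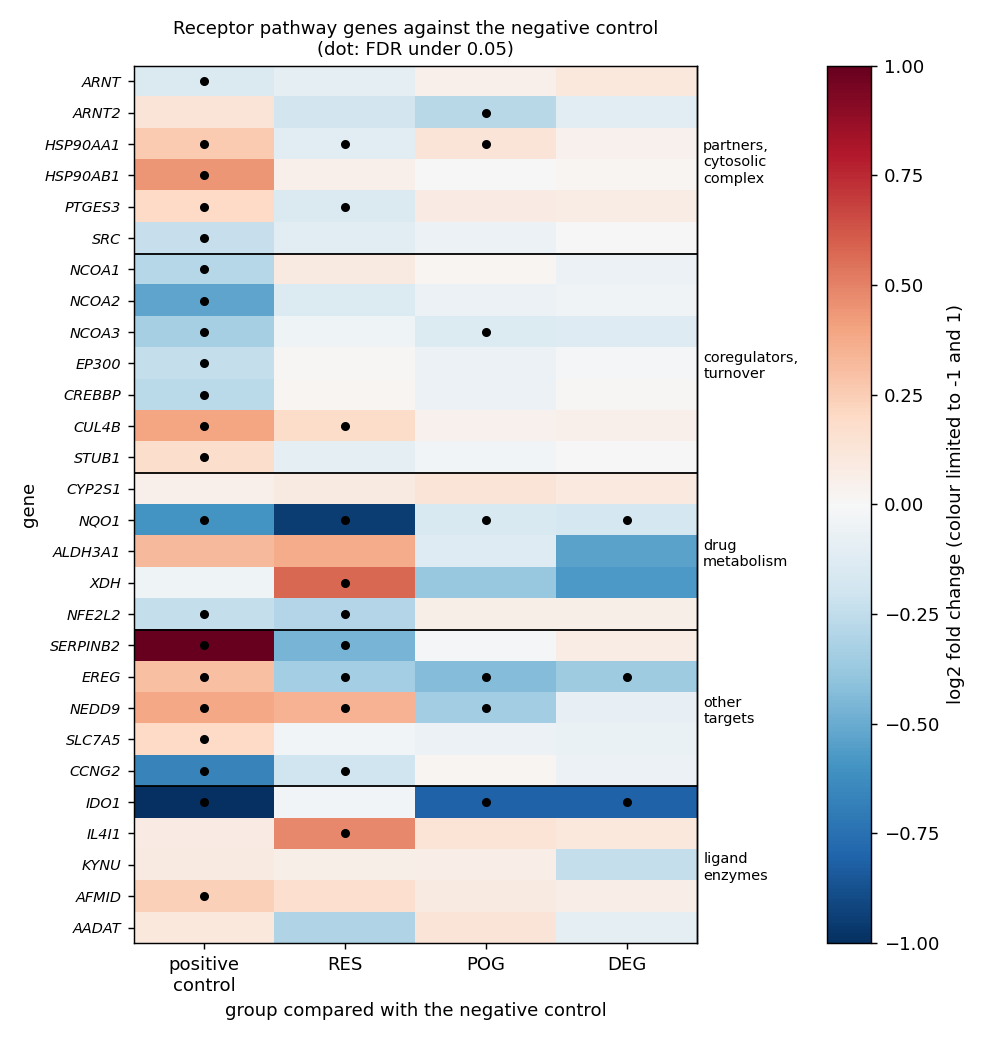
Log2 fold change against the negative control (colour, limited to −1 and 1) of the 28 tested pathway genes (rows, grouped by role) in the positive control, RES, POG and DEG (columns), with a dot for an FDR under 0.05. Dots are present for 21, 11, 7 and 3 genes, and NQO1 and EREG carry one in every column.

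Among the partners of the receptor and its cytosolic complex, 3 of 6 genes were higher and 2 were lower with serum. Of all tested genes 42.4% were called with serum, 21.4% higher and 20.9% lower. The listed genes that were higher were both HSP90 genes and PTGES3, which encodes p23. The log2 fold change with serum was 0.44 for HSP90AB1 (edgeR FDR 1.37e-34), 0.26 for HSP90AA1 (edgeR FDR 4.38e-14) and 0.20 for PTGES3 (edgeR FDR 2.21e-07). The kinase gene SRC fell by 0.23 (edgeR FDR 4.09e-07) and ARNT fell by 0.14 (edgeR FDR 0.00343) with serum, where the FDR of ARNT was 0.0943 with negative control 1 left out and 0.0815 with dispersions from the groups compared. With RES, PTGES3 fell by 0.15 (edgeR FDR 3.17e-04) and HSP90AA1 fell by 0.12 (edgeR FDR 0.00237) on the log2 scale. These were the 2 called of the 6 genes of this role, beside 11.2% of all tested genes. Neither call held both times when a negative control was left out. The FDR was 0.0969 for HSP90AA1 with negative control 1 left out and 0.0685 for PTGES3 with negative control 2 left out. With POG, HSP90AA1 rose by 0.13 (edgeR FDR 3.14e-04), and the ARNT relative ARNT2 was called lower near the threshold (log2 fold change −0.28, edgeR FDR 0.0308). For ARNT2 the FDR was 0.553, 0.0763 and 0.129 when negative control 2, POG 2 or POG 3 was left out, and 0.0527 with plain library totals. The quasi-likelihood test (0.0510) and DESeq2 (adjusted p 0.0654) did not call ARNT2 either. ARNT was not called with any compound in the main test. With dispersions from the groups compared it was called lower with RES (edgeR FDR 0.0445) and higher with DEG (0.0223). It was also called higher with DEG under plain library totals (0.0386). ARNT was higher in POG (0.14, edgeR FDR 4.31e-04) and in DEG (0.20, edgeR FDR 5.52e-06) than in RES.

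All 7 coregulator and turnover genes were called with serum, beside 42.4% of all tested genes. NCOA1, NCOA2, NCOA3, EP300 and CREBBP, which encode coactivators, fell by 0.23 to 0.53 on the log2 scale, the most for NCOA2 (edgeR FDR 9.84e-12). The size of these falls varied with the setting. Over the alternatives the log2 fold change ran from −0.66 to −0.38 for NCOA2 and from −0.34 to −0.12 for EP300. The positive controls stood at 17.5 and 21.3 CPM for NCOA2 and at 163 and 191 CPM for EP300. CUL4B, whose product is part of a ubiquitin ligase that the receptor can join, rose by 0.40 with serum (edgeR FDR 3.50e-16). CUL4B also rose by 0.18 with RES (edgeR FDR 8.72e-04), where the FDR was 0.152 with negative control 1 left out. NCOA3 was lower with POG (log2 fold change −0.14, edgeR FDR 0.0258), with FDRs of 0.0883, 0.290, 0.0894 and 0.101 when negative control 1, negative control 2, POG 1 or POG 2 was left out and 0.0868 with plain library totals. STUB1, a ubiquitin ligase that works with HSP90, rose by 0.18 with serum (edgeR FDR 9.52e-04), with an FDR of 0.0588 when negative control 2 was left out.

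Of the drug metabolism genes, NQO1, a quinone reductase that both this receptor and NRF2 are known to switch on, showed the largest change with RES in the list. NQO1 stood at 49.9, 49.9 and 50.03 CPM in RES and at 94.1 and 98.6 CPM in the negative controls. The RES libraries were nearly identical and far below the controls (fold change 0.518, log2 fold change −0.95, SE 0.0387, edgeR FDR 4.28e-112). NFE2L2, which encodes NRF2, stood at 91.8 ± 0.397 CPM in RES and 112.5 ± 1.13 CPM in the negative controls (SD, n = 3 and 2; log2 fold change −0.29, edgeR FDR 2.11e-12). Both genes were also lower with serum, by −0.60 for NQO1 and −0.24 for NFE2L2. With POG and DEG, NQO1 fell by 0.15 (edgeR FDR 0.00198) and by 0.18 (edgeR FDR 0.00153), with FDRs of 0.166 and 0.128 when negative control 2 was left out.

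NQO1 was 1.73-fold higher in POG than in RES (edgeR FDR 1.52e-97) and 1.70-fold higher in DEG than in RES (edgeR FDR 7.99e-72). XDH, which encodes xanthine dehydrogenase, went the other way. It held 160, 160 and 170 reads in RES and 110 and 83 in the negative controls (log2 fold change 0.57, SE 0.173, edgeR FDR 0.0116), but the FDR was 0.377 or 0.0532 when negative control 2 or RES 3 was left out. XDH was lower in POG (−0.95, edgeR FDR 9.02e-09) and in DEG (−1.14, edgeR FDR 1.26e-08) than in RES.

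**Figure D4:**
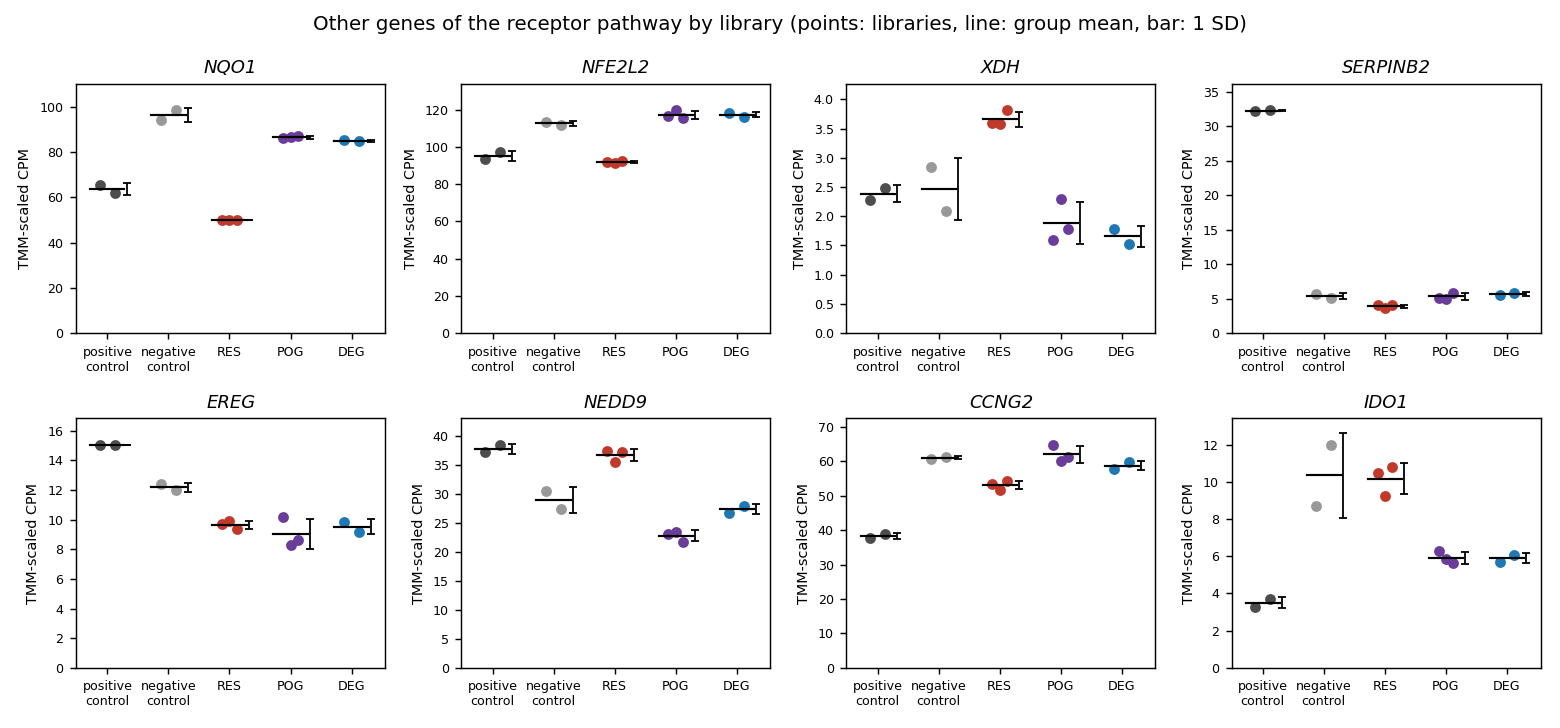
TMM-scaled CPM (vertical axes from 0) of 8 pathway genes in each library of the 5 groups (horizontal axes), with group means as lines and 1 SD as bars. NQO1 is lowest in RES, IDO1 is lower in POG and DEG than in RES and the negative controls, and SERPINB2 stands at 32.2 and 32.3 CPM with serum and at 3.60 to 5.87 CPM elsewhere.

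The other target genes included the largest serum response of the list. SERPINB2, a plasminogen activator inhibitor, rose from 5.35 ± 0.390 to 32.3 ± 0.0736 CPM with serum (SD, n = 2 and 2; fold change 6.03, edgeR FDR 1.05e-158). It fell by 0.46 on the log2 scale with RES (edgeR FDR 0.00117), where the FDR was 0.102 with negative control 1 left out. EREG, an EGF receptor ligand, rose by 0.30 with serum and was lower with each compound, by −0.34 with RES (edgeR FDR 0.00266), −0.43 with POG (edgeR FDR 2.79e-05) and −0.36 with DEG (edgeR FDR 0.00546). With negative control 1 left out the FDR of EREG was 0.0900 for RES and 0.0952 for DEG, and with DEG 2 left out it was 0.153 for DEG.

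NEDD9, a scaffold protein of focal adhesions, separated RES from POG. It stood at 37.4, 35.5 and 37.2 CPM in RES, 23.1, 23.5 and 21.7 CPM in POG, and 30.5 and 27.3 CPM in the negative controls. With serum NEDD9 stood at 37.2 and 38.4 CPM and was called higher as well. The RES libraries lay above the negative controls (log2 fold change 0.35, edgeR FDR 1.19e-07) and the POG libraries below them (−0.34, edgeR FDR 3.14e-07), with a direct fold change of 0.620 between POG and RES (edgeR FDR 2.57e-39). DEG stood between them at 26.8 and 27.9 CPM, and NEDD9 was the 1 list gene called between DEG and POG (log2 fold change 0.27, edgeR FDR 0.00347). That FDR became 0.0596, 0.0614 and 0.247 when POG 3, DEG 1 or DEG 2 was left out. CCNG2, a cyclin gene known to be held down by growth factors, fell by 0.67 with serum and by 0.20 with RES (edgeR FDR 3.17e-04).

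Among the enzymes that make or break down tryptophan-derived ligands of the receptor, IDO1, which opens the kynurenine pathway, was lower with serum, POG and DEG and was not called with RES. It stood at 6.26, 5.83 and 5.64 CPM in POG and at 5.71 and 6.08 CPM in DEG. In the negative controls it stood at 8.70 and 12.0 CPM and in RES at 10.5, 9.21 and 10.8 CPM. POG and DEG thus lay below every negative control and RES library (log2 fold change against the negative control −0.81 for both, edgeR FDR 2.36e-10 and 4.56e-08), while RES overlapped the negative controls (95% interval −0.25 to 0.19). With serum IDO1 stood at 3.28 and 3.72 CPM (−1.57, edgeR FDR 1.34e-28). IL4I1, an oxidase that also yields receptor ligands, rose by 0.48 with RES (edgeR FDR 0.00311), with an FDR of 0.335 when negative control 1 was left out.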

How the data were processed

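Raw read counts by Ensembl gene identifier, without normalization, were deposited by the authors as 1 table. Per the study's methods, reads were aligned to hg38 with STAR (BWA MEM was named too) and counted with featureCounts. Versions, annotation release, strand setting and the treatment of multi-mapped reads are not given in the sources used here. The table held 12 library columns for the 13 labelled samples, and all 12 were used.

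Identifiers were paired with symbols by a table of Ensembl identifiers (43214 of 43836 matched). Genes were filtered with filterByExpr by group, libraries were scaled by TMM and dispersions were estimated over all 12 libraries. The exact test the study names was run in edgeR 4.0.16 (R 4.3.3) with Benjamini-Hochberg adjustment over 17092 genes. Standard errors and 95% intervals came from edgeR's quasi-likelihood fit. The test was checked on simulated counts. Alternatives were the quasi-likelihood test, DESeq2 1.42.0, other scalings, filters and dispersions, and leaving out each library. The pathway list was fixed by role (1 gene of it is not reported here, and all counts and medians are over the others), and for each of the 5 genes the 3 nearest in pattern were named. The genes and lists were chosen with earlier results of these data known. Counting error is smallest for the deepest genes, and intervals cover neither batch, which the labels do not give, nor culture.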

Additional observations from a re-analysis of the deposited data

How the results depend on the processing

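No paired analysis was possible because the labels carry no replicate numbers that the groups share. Of 405 recomputed changes of the 5 genes, 365 kept their direction and side of the threshold, 25 lost the call, 6 gained one and 9 changed sign. The count of called genes of the 5 changed with the setting as follows. For serum it was 5 with plain library totals, and 3 by the quasi-likelihood test, by DESeq2 and with a mean of at least 1 CPM. With plain library totals it was 1 for RES and 2 for POG, and with no filter it was 1 for RES. With dispersions from the groups compared it was 3 for POG and 1 for DEG against POG. When each library was left out in turn it ranged from 1 to 4 for serum, 1 to 2 for RES, 0 to 1 for POG, 0 to 1 for DEG, 3 to 4 for POG against RES and 2 to 4 for DEG against RES, and was 0 throughout for DEG against POG. The lowest of these counts came without negative control 1 for serum, negative control 2 for POG, and DEG 1 for DEG. With a pair cut to 1 library the test has fewer samples by construction. The changes of sign were all in uncalled values. TIPARP with RES had a log2 fold change of 0.018 with plain totals, and −0.053 to 0.043 when single libraries were left out. The CYP1A1 values ranged from −0.31 to 0.33 with POG, from −0.36 to 0.22 with DEG and from −0.42 to 0.27 for DEG against POG when single libraries were left out. With a mean of at least 1 CPM, CYP1A1 was not tested, and DESeq2 gave it no adjusted p in 3 comparisons. Over all genes, calls for DEG against the negative control numbered 1646, and 2573 with dispersions from the groups compared. For DEG against POG they numbered 179, against 838 with those dispersions, 116 with no filter and 103 by the quasi-likelihood test. With 1 library left out the calls over all genes fell to as few as 881 of 1906 for RES, 1362 of 2478 for POG, 850 of 1646 for DEG, 2068 of 3616 for DEG against RES and 32 of 179 for DEG against POG. The cause of these differences was not tested. At 20 to 64 reads per library, CYP1A1 is limited by depth.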
